A study of Mus musculus with 8 samples.

Results

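Genes that build, coat and crosslink the extracellular matrix were examined in the livers of mice that lack Brap in hepatocytes. They were taken from the deposited table by gene symbol and comprise the crosslinking enzymes Lox, Loxl1 and Loxl2, the small leucine-rich proteoglycans Dcn, Lum and Bgn, the elastic fibre genes Fbn1 and Eln, and the adhesive glycoproteins Fn1 and Thbs1. These are 10 of the 24451 genes in the table. The study asked how the liver is altered when hepatocytes lose Brap (BRCA1-associated protein). Bulk RNA of the left liver lobe was sequenced from 4 Brap LKO and 4 Brap F/F mice, each liver a library of its own. Both groups were C57BL/6 mice (C57BL/6J in the methods), 18 wk old and fasted for 6 h, and per the methods of the study male. Both carried Brap alleles with loxP sites on either side of exons 2 and 3 (Brap fl/fl). Brap LKO mice also carried Albumin-Cre (Alb Cre+), whereas Brap F/F mice did not (Alb Cre-) and are called wild type in the sample records. The albumin promoter drives Cre in cells that make albumin, chiefly hepatocytes, so the gene is left intact in the mesenchymal, endothelial and immune cells of the same liver. Mice with Albumin-Cre and no floxed allele were not analysed here.

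Collagen and elastin become stable, insoluble fibres when enzymes of the lysyl oxidase family oxidize their lysine side chains, which then react to form covalent crosslinks. Small leucine-rich proteoglycans sit on collagen fibrils and govern their diameter and spacing, and microfibrils of fibrillin form the scaffold on which elastin is laid down. In the liver, stellate cells and portal fibroblasts are the usual source of these proteins, with the exception of fibronectin, whose soluble plasma form is secreted by hepatocytes.

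Each liver had between 26280884 and 33313914 reads on genes, and Albumin took 5.17% to 9.34% of them. The targeted gene, Brap, had normalized counts (reads divided by a size factor for each liver) of 4042, 4203, 4065 and 3641 for Brap LKO replicates 1 to 4, against 4410, 4235, 3994 and 4106 in Brap F/F replicates 1 to 4. The groups overlapped, with a log2 fold change of -0.07 (SE 0.07, limma adjusted p = 0.631). The count covers every exon of the gene and only exons 2 and 3 are removed, so it does not check the labels. Over all genes, Brap F/F replicates 2 and 3 stood apart from the other 6 livers on the first principal component (37.2% of the variance), with scores of 49.7 and 48.5 against -41.4 to 0.613, and Brap F/F replicates 1 and 4 on the second, with -42.6 and -36.0 against 4.83 to 24.3. Values without single livers are therefore given beside the calls.

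Of the 10 matrix genes, 9 had higher estimates in Brap LKO livers, from 1.29-fold for Dcn to 3.16-fold for Loxl1, and Fn1 was the exception. For comparison, 48.0% of the 15352 genes tested had a log2 fold change above 0. The median log2 fold change was 0.71 over the 10 genes and -0.01 over all genes tested. Only Loxl1 passed the threshold (limma, adjusted p under 0.05), which makes 1 of 10 higher against a background of 0.664% of genes. By limma 0 of 10 were lower, where the background was 0.104%. At an unadjusted p under 0.05, limma had 7 of 10 higher and 0 of 10 lower, against 9.23% and 6.59% of all genes. In 4 of the 10 (Loxl1, Lum, Bgn and Eln) every Brap LKO liver lay above every Brap F/F liver, as did 5.48% of genes, and the reverse order was found for 0 of 10 and for 4.39% of genes. Count models fitted to the reads recovered from the table called more genes. DESeq2 called 5 of 10 higher (Loxl1, Lum, Bgn, Fbn1 and Eln) against a background of 3.02%, and edgeR called 2 of 10 (Loxl1 and Lum) against 0.703%. Both called 0 of 10 lower, with backgrounds of 1.13% for DESeq2 and 0.0912% for edgeR. In bulk, a change in the number of cells of a type and a change in RNA per cell cannot be told apart. This holds for each gene described here, higher or lower.

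**Figure D1:**
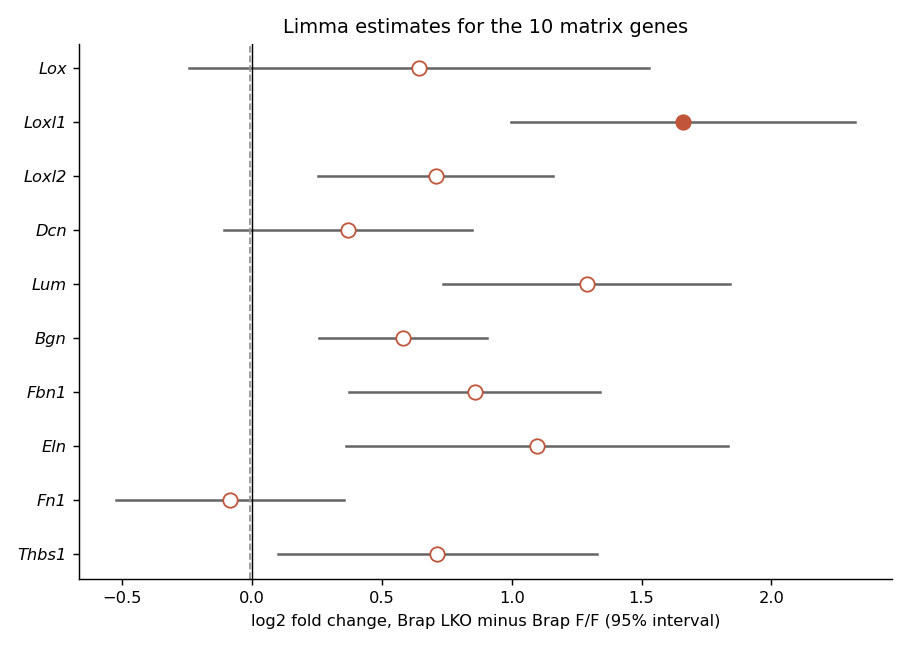
Log2 fold change (Brap LKO minus Brap F/F, 4 livers each) of each matrix gene from limma, with its 95% interval as a line, a filled circle for adjusted p under 0.05 and a dashed line at the median of all genes tested (-0.01). The intervals of 7 genes lie above 0, and those of Lox, Dcn and Fn1 include it.

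Among the crosslinking enzymes, Loxl1 rose. It encodes lysyl oxidase-like 1, the family member most closely tied to elastin, and lies on the minus strand at chr9:58287738-58313186 (mm10). Its normalized counts were 116, 86.6, 102 and 201 for Brap LKO replicates 1 to 4, against 38.8, 28.5, 30.5 and 56.9 in Brap F/F replicates 1 to 4. The groups did not overlap, and Brap LKO replicate 4 was far above the other 3 Brap LKO livers. The difference was 3.16-fold (95% interval 1.99 to 5.01), a log2 fold change of 1.66 (SE 0.30, limma adjusted p = 0.0446). This call was close to the threshold. With single livers left out, the limma adjusted p was 0.0238 without Brap F/F replicate 4 and between 0.0718 and 0.150 without any of the other 7 livers. Without Brap LKO replicate 4 the log2 fold change was 1.41. Over 13 other alternatives the call of Loxl1 held in 10. It was lost with a mean of at least 20 (limma adjusted p = 0.0505), quantile normalization (0.0685) or no eBayes trend (0.0660).

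Loxl2, which acts on the collagen IV of basement membranes and also has a nuclear form, is on the plus strand at chr14:69609068-69695834. It had 77.4, 54.4, 81.9 and 83.2 normalized counts in Brap LKO livers and 35.3, 58.0, 44.2 and 43.2 in Brap F/F livers. Only Brap LKO replicate 2 fell below a control liver, Brap F/F replicate 2. The estimate was 1.63-fold, a log2 fold change of 0.71 (SE 0.20, limma adjusted p = 0.148). Reads over Loxl2 can include some from other genes, since 5.70% of its exonic bases are shared with Gm27177 on the opposite strand or Mir6950, and the use of strand in counting is not given in the sources used here.

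Lox, the founding enzyme of the family, lies on chromosome 18 and was close to the detection limit, with 3 to 13 reads per liver. Its normalized counts were 7.29, 5.10, 7.08 and 13.5 in Brap LKO livers and 5.70, 3.05, 3.15 and 7.85 in Brap F/F livers. The groups overlapped, and replicate 4 was the highest liver of each group. A log2 fold change of 0.64 had a standard error of 0.39 (limma adjusted p = 0.452), so a difference was not shown. With single livers left out it ran from 0.40 without Brap LKO replicate 4 to 0.86 without Brap F/F replicate 4. The log2 ratio of Loxl1 to Loxl2 averaged 0.70 ± 0.40 in Brap LKO and -0.25 ± 0.63 in Brap F/F livers (SD, n = 4), with overlap, and was not tested. Ratios to Lox are not given because of its few reads.

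**Figure D2:**
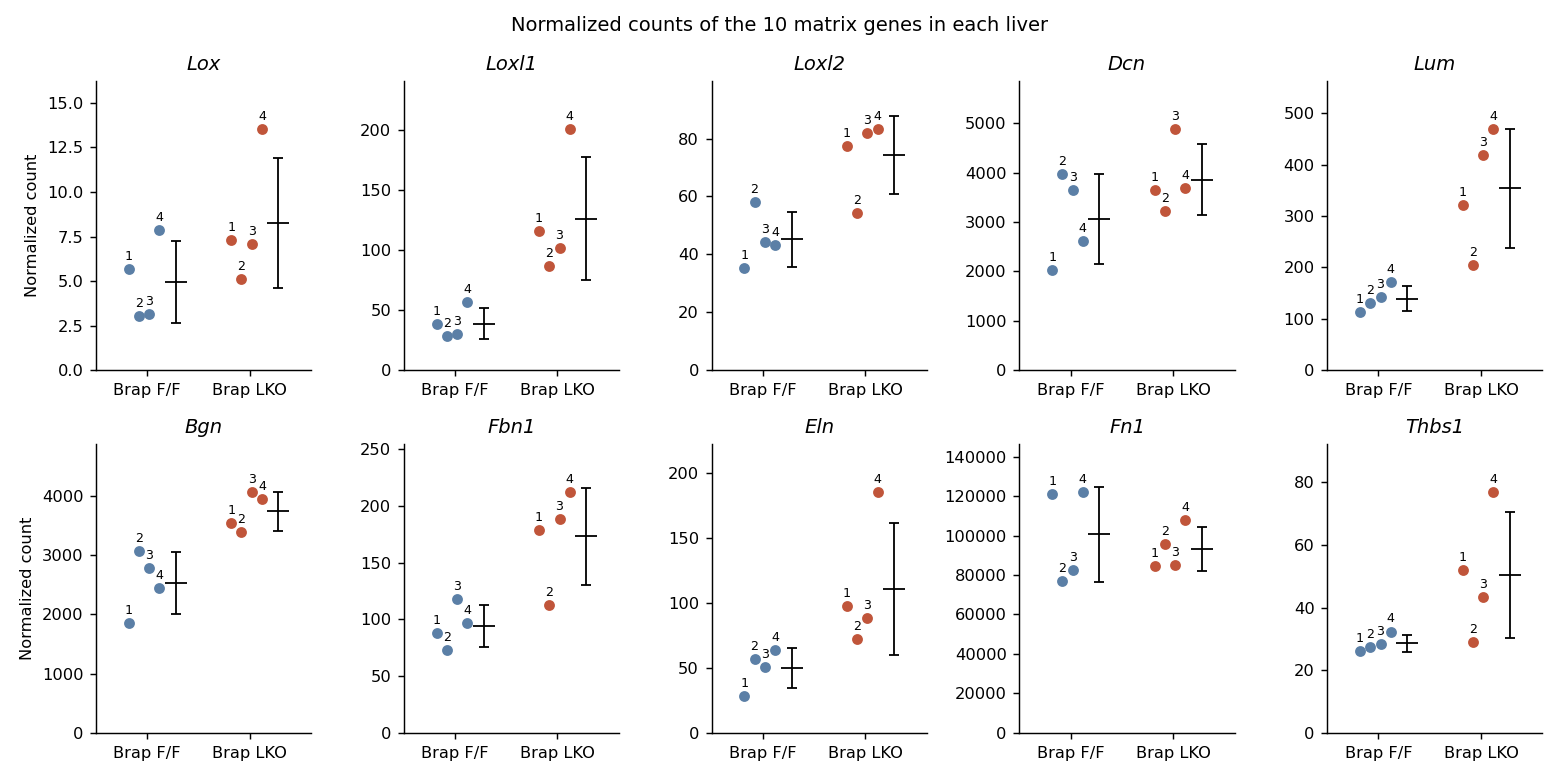
Normalized counts of the 10 matrix genes in each of the 4 Brap F/F (blue) and 4 Brap LKO (red) livers, numbered by replicate, with the group mean and SD in black and each axis starting at 0. Loxl1, Lum, Bgn and Eln show no overlap, and Brap LKO replicate 4 reaches 201 for Loxl1 and 185 for Eln.

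The 3 small leucine-rich proteoglycans had estimates above 0, and none passed the limma threshold. Lum encodes lumican, which carries keratan sulfate in some tissues and limits the growth of collagen fibrils, and it lies on the plus strand at chr10:97565128-97572703. Lum had 322, 205, 419 and 469 normalized counts in Brap LKO livers and 113, 131, 142 and 171 in Brap F/F livers. Every Brap LKO liver was above every Brap F/F liver, the closest pair being Brap LKO replicate 2 and Brap F/F replicate 4. The estimate of 2.44-fold (95% interval 1.67 to 3.58) corresponds to a log2 fold change of 1.29 (SE 0.25), and it missed the threshold narrowly (limma adjusted p = 0.0534). Over 21 alternative settings the adjusted p of Lum ran from 3.32e-05 with DESeq2 to 0.165 with limma without Brap LKO replicate 1, and it passed in 8 of them.

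Dcn encodes decorin, a dermatan or chondroitin sulfate proteoglycan that binds type I collagen and TGF-beta, and is the neighbour of Lum. It lies on the same strand at chr10:97479609-97518143, with 46984 bases between the genes. Dcn had 3654, 3226, 4880 and 3683 normalized counts in Brap LKO livers and 2022, 3968, 3643 and 2609 in Brap F/F livers. The overlap was wide, because Brap F/F replicates 2 and 3 lay within the range of the Brap LKO livers while Brap F/F replicates 1 and 4 lay below it. The log2 fold change was 0.37 (SE 0.21, limma adjusted p = 0.427), and with single livers left out it ran from 0.19 without Brap F/F replicate 1 to 0.51 without Brap F/F replicate 2. The log2 ratio of Lum to Dcn was -3.50, -3.97, -3.54 and -2.97 in Brap LKO livers and -4.15, -4.91, -4.67 and -3.93 in Brap F/F livers. The ratio was higher by 0.92 on average in Brap LKO livers, with an overlap of Brap LKO replicate 2 and Brap F/F replicate 4, and this difference was not tested.

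Bgn encodes biglycan, the closest relative of decorin, on the plus strand at chrX:73483602-73495933. Its normalized counts were 3549, 3386, 4067 and 3950 in Brap LKO livers and 1856, 3067, 2783 and 2439 in Brap F/F livers. The Brap LKO livers lay close together, with a coefficient of variation of 8.64%, and all were above the controls, which varied by 20.5%. The difference was 1.49-fold, a log2 fold change of 0.58 (SE 0.14, limma adjusted p = 0.104). The sequence before the start of Bgn is shown because its 8 values separated by genotype and its start is annotated without overlap. RefSeq windows matched 2 of the 10 genes, Bgn and Fbn1. Each window was searched on both strands for the GC box, spelled GGGCGG, for the core motif of TEAD factors, spelled GGAATG, and for the TATA box, spelled TATAAA. The 250 bases before the start of Bgn (chrX:73483351-73483600, plus strand, GRCm38.p6, RefSeq) overlap no annotated exon and read 5′ to 3′ as follows, with GC box matches in capitals.
Bgn: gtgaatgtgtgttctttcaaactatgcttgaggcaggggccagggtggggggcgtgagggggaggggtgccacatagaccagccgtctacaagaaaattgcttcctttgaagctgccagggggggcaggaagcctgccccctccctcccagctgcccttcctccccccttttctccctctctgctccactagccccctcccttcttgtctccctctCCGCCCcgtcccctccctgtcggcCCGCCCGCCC
The window holds 3 GC box matches, of which the last 2 share bases, and no match to the TEAD core or the TATA box. Among 32851 promoter windows of the same length, 32.7% hold the GC box, 12.6% the TEAD core and 12.4% the TATA box on either strand. The window of Fbn1, which overlaps an annotated exon and is not printed, has 1 GC box match and none to the other motifs. These matches describe the sequence only.

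Both elastic fibre genes had higher estimates. Eln encodes tropoelastin, the soluble precursor of elastin, on the minus strand at chr5:134702593-134747323. It had 97.5, 72.2, 88.0 and 185 normalized counts in Brap LKO livers and 28.5, 57.0, 50.5 and 63.8 in Brap F/F livers. The groups did not overlap, with Brap LKO replicate 4 the highest and Brap F/F replicate 1 the lowest by a wide margin. The estimate was 2.14-fold (95% interval 1.28 to 3.56), a log2 fold change of 1.10 (SE 0.33, limma adjusted p = 0.164).

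Fbn1 encodes fibrillin-1, the main protein of microfibrils, on the minus strand at chr2:125300594-125507993. Its normalized counts were 179, 113, 188 and 212 in Brap LKO livers and 87.8, 73.2, 118 and 97.1 in Brap F/F livers. Brap LKO replicate 2 fell below Brap F/F replicate 3, and the other 3 Brap LKO livers were above all controls. The log2 fold change was 0.86 (SE 0.21, 1.81-fold, limma adjusted p = 0.106). Of the exonic bases of Fbn1, 20.1% overlap Gm9913 on the opposite strand, so reads of that gene could be counted here if strand was not used. Gm9913 is not among the gene symbols of the deposited table, so its own level could not be given.

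Neither of the adhesive glycoproteins passed the limma threshold. Fn1 encodes fibronectin, and it had 84404, 95806, 84876 and 107924 normalized counts in Brap LKO livers and 120892, 76970, 82711 and 122083 in Brap F/F livers. The control livers formed a high pair (replicates 1 and 4) and a low pair (replicates 2 and 3) on either side of all 4 Brap LKO livers. The log2 fold change was -0.09 (SE 0.19, limma adjusted p = 0.854), with a 95% interval from -0.52 to 0.35. Its sign turned under quantile normalization (0.14) and when every liver was scaled to the same total (0.07). Relative to the median of all genes, Fn1 was at -0.07 with the same total and at 0.16 under quantile normalization. The sign also turned without Brap F/F replicate 1 (0.013) or without Brap F/F replicate 4 (0.018). Thbs1 encodes thrombospondin-1, which binds CD47 and can activate latent TGF-beta. It had 51.9, 28.9, 43.5 and 77.0 normalized counts in Brap LKO livers and 26.2, 27.5, 28.4 and 32.4 in Brap F/F livers. The controls were tightly grouped (coefficient of variation 9.31%) and the Brap LKO livers were spread (40.1%), with Brap LKO replicate 2 inside the control range. The log2 fold change was 0.71 (SE 0.27, limma adjusted p = 0.259).

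Levels of different genes were compared as mean normalized counts per kb of the annotated transcript with the longest coding sequence, over the 8 livers. Fn1 was first at 11661, followed by Dcn at 1969 and Bgn at 1297. Lum stood at 100.7, Loxl1 at 25.0, Eln at 20.8, Loxl2 at 11.2, Fbn1 at 11.1, Thbs1 at 6.75 and Lox at 1.39. Neighbours kept this order in all 8 livers except Loxl1 and Eln (6 of 8) and Loxl2 and Fbn1 (3 of 8). Each crosslinking enzyme was below the 3 proteoglycans on this scale in every liver. The difference in Loxl1 was a change from 11.7 to 38.3 normalized counts per kb between the group means.

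Livers of the same genotype differed in the mean level of the 10 genes. On the log2 scale, the distance of each liver from the 8-liver mean, averaged over the 10 genes, was 0.37, -0.03, 0.42 and 0.81 for Brap LKO replicates 1 to 4, and -0.58, -0.42, -0.40 and -0.16 for Brap F/F replicates 1 to 4. Brap LKO replicate 4 was the highest of 8 livers for 7 of the 10 genes, and Brap F/F replicate 1 was the lowest for 6. Brap LKO replicate 2 was the least raised Brap LKO liver, above the gene mean for 4 of the 10. Without Brap LKO replicate 4 the median log2 fold change of the 10 genes was 0.60, without Brap LKO replicate 2 it was 0.90, and without Brap F/F replicates 2 or 3, in turn, it was 0.72 and 0.71.

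**Figure D3:**
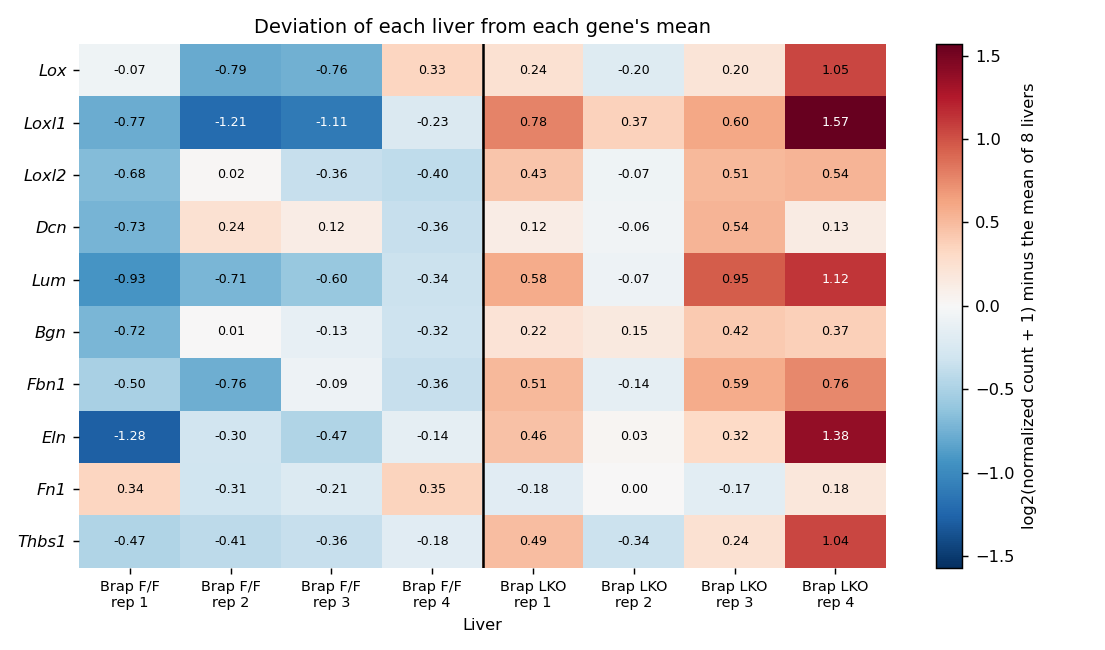
Heat map of log2(normalized count + 1) minus the mean of the 8 livers for each gene, with Brap F/F livers left of the line and Brap LKO livers right of it. Brap LKO replicate 4 is above the mean for all 10 genes, up to 1.57 for Loxl1, and Fn1 is above its mean in Brap F/F replicates 1 and 4, where 9 and 8 of the other genes, in turn, are below theirs.

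By the animal numbers of the sample records, the mice form a lower series (3 Brap LKO and 1 Brap F/F) and a higher series (1 Brap LKO and 3 Brap F/F), so series and genotype were partly mixed. The difference between genotypes was above 0 for 9 of the 10 genes in the lower series (median 0.95 on the log2 scale) and for 10 of the 10 in the higher series (median 1.26). Each series had 1 liver in one of its groups, and no test was run within it. The lone Brap F/F liver of the lower series, replicate 1, was the lowest of 8 livers for 6 of the 10 genes. The lone Brap LKO liver of the higher series, replicate 4, was the highest for 7. The medians of both series rest on these livers. With the series as a covariate, limma called 4 of the 10 higher, against 0.860% of all genes in that fit. These were Loxl1 (log2 fold change 1.89, adjusted p = 0.0440), Lum (1.54, 0.0370), Eln (1.62, 0.0117) and Bgn (0.75, 0.0494).

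Profiles of 12746 other genes with a mean of at least 20 normalized counts were compared with the mean profile of the 10, each scaled to unit SD over the 8 livers. The smallest root mean square differences were those of Capn6 (0.112), Pdgfrb (0.143), Col6a3 (0.170), Tgfb3 (0.184) and Bicc1 (0.188). Of the 10 genes themselves, Lum was nearest to their mean profile (0.150) and Fn1 farthest (1.35), with Dcn next (0.885). Pdgfrb encodes a receptor for platelet-derived growth factor on mesenchymal cells, Col6a3 a chain of type VI collagen and Tgfb3 a TGF-beta ligand. In limma, Col6a3 (log2 fold change 1.38, adjusted p = 0.0286), Bicc1 (1.50, 0.0313) and Pdgfrb (0.91, 0.0494) passed the threshold, while Capn6 (1.50, 0.0641) and Tgfb3 (1.12, 0.109) did not. With single livers left out, the limma calls held in 2 of 8 fits for Col6a3, 3 for Bicc1 and 1 for Pdgfrb, and in 13, 12 and 9 of 13 other alternatives. They were picked for this likeness, so their own differences add no support.

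Other genes of the same systems were listed by function, 132 in all, of which 121 are in the table and 101 were tested. Limma called 4 of the 101 higher and 2 lower, to be read against 0.664% and 0.104% of all genes, and their median log2 fold change was 0.39 against -0.01. All livers of one genotype were above all of the other for 23 higher and 3 lower genes (background 5.48% and 4.39%). DESeq2 called 20 higher and 3 lower (background 3.02% and 1.13%), and edgeR 6 higher and 1 lower (0.703% and 0.0912%). These genes had their largest median shifts among elastic fibre and adhesive proteins.

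Among 24 tested genes of elastic fibres and microfibrils, 21 had a log2 fold change above 0, with a median of 0.48, and 2 passed the limma threshold. At an unadjusted p under 0.05, 12 were higher and 0 lower, against 9.23% and 6.59% of all genes. DESeq2 called 6 higher and edgeR 3, with 0 lower. The shares of all genes called higher were 0.664% by limma, 3.02% by DESeq2 and 0.703% by edgeR. Adamtsl2, a secreted protein that binds fibrillin microfibrils and LTBP1, had 607, 508, 711 and 754 normalized counts in Brap LKO livers and 236, 371, 306 and 287 in Brap F/F livers, and its log2 fold change was 1.10 (SE 0.16, limma adjusted p = 0.0248). Fbln2, which encodes fibulin-2, had 110.2, 96.8, 113 and 113 against 43.3, 52.9, 69.4 and 59.9, a log2 fold change of 0.95 (SE 0.16, limma adjusted p = 0.0402). Neither overlapped between genotypes. With single livers left out, the limma call held in 4 of 8 fits for Adamtsl2 (adjusted p up to 0.0805) and in 2 of 8 for Fbln2 (up to 0.146). Over 13 other alternatives Adamtsl2 held in 12 and Fbln2 in 11, and both missed the threshold with the replicate number as a block (limma adjusted p = 0.0508 and 0.0647). The most abundant genes of the list per kb were Ltbp4 (log2 fold change 0.43, limma adjusted p = 0.356) and Emilin1 (0.61, 0.0939).

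Of 27 tested adhesive and matricellular genes, 21 were above 0, with a median of 0.55, and limma called 2 higher and 1 lower. At an unadjusted p under 0.05, 17 were higher and 2 lower, DESeq2 called 8 higher and 1 lower, and edgeR 3 and 0. The shares of all genes higher were 0.664% (limma), 9.23% (unadjusted), 3.02% (DESeq2) and 0.703% (edgeR). Those lower were 0.104%, 6.59%, 1.13% and 0.0912%, in turn. Mfge8, a glycoprotein that links phosphatidylserine to integrins, had a log2 fold change of 0.92 (SE 0.13, limma adjusted p = 0.0246), with means of 473 ± 70.8 normalized counts in Brap LKO and 249 ± 32.4 in Brap F/F livers (SD, n = 4). Ccn1, a matricellular ligand of integrins and a widely used YAP target, averaged 308 ± 58.4 against 170 ± 25.5 (SD, n = 4), a log2 fold change of 0.85 (SE 0.15, limma adjusted p = 0.0469). Ccn2, another YAP target of the list, overlapped between genotypes. Its log2 fold change was 0.22 (SE 0.50, limma adjusted p = 0.849) in limma and -0.08 in DESeq2. Smoc1, a calcium-binding matrix protein, fell, with means of 3967 ± 236 against 5302 ± 406 (SD, n = 4) and a log2 fold change of -0.42 (SE 0.08, limma adjusted p = 0.0481). With single livers left out, the limma calls held in 4 of 8 fits for Mfge8 (adjusted p up to 0.0815), 1 for Ccn1 (up to 0.150) and 0 for Smoc1 (0.0515 to 0.168). Over 13 other alternatives they held in 13, 8 and 5, in turn, and Ccn1 and Smoc1 missed the threshold most widely with the animal series as a covariate (limma adjusted p = 0.114 and 0.123). Vtn and Ecm1, the most abundant of the list per kb, had log2 fold changes of -0.04 and -0.56 (limma adjusted p = 0.920 and 0.348).

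The remaining lists had smaller medians. For their counts, the shares of all genes higher were 0.664% (limma), 9.23% (unadjusted), 3.02% (DESeq2) and 0.703% (edgeR). Those lower were 0.104%, 6.59%, 1.13% and 0.0912%, in turn. Limma called 0 of 25 tested proteoglycans outside the members in either direction, with 5 higher and 1 lower at an unadjusted p under 0.05, and DESeq2 called 2 higher and 1 lower while edgeR called 0. Their median log2 fold change was 0.26, and the most abundant per kb, Col18a1 and Sdc4, had -0.05 and -0.36 (limma adjusted p = 0.834 and 0.140). Of 25 tested genes for crosslinking and collagen modification, limma called 0 higher and 1 lower, with 7 higher and 1 lower at an unadjusted p under 0.05. DESeq2 called 4 higher and 1 lower, and edgeR 0 higher and 1 lower. The lower gene was P4ha2, a catalytic subunit of collagen prolyl 4-hydroxylase, with means of 147 ± 14.4 and 259 ± 46.2 normalized counts (SD, n = 4), a log2 fold change of -0.80 (SE 0.15, limma adjusted p = 0.0494). This call held in 1 of 8 fits with single livers left out (limma adjusted p up to 0.165) and in 6 of 13 other alternatives, and its adjusted p was highest among the latter with the animal series as a covariate (0.0982). P4hb and Ppib, the most abundant per kb, had -0.23 and 0.03 (limma adjusted p = 0.367 and 0.942). Loxl3, another lysyl oxidase, had a log2 fold change of 0.68 without overlap between genotypes, and Loxl4 had 0.14 with overlap. Neither passed the limma threshold, whereas DESeq2 called Loxl3 (DESeq2 adjusted p = 0.0140) and not Loxl4 (0.833). Both were singled out after their values were seen, to complete the enzyme family.

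Receptors that bind products of these genes were considered last. The shares of all genes higher were 0.664% (limma), 9.23% (unadjusted), 3.02% (DESeq2) and 0.703% (edgeR). Of 16 receptors tested, 14 were above 0 with a median of 0.20, and limma called 1 higher and 0 lower. At an unadjusted p under 0.05, 5 were higher and 0 lower. DESeq2 called 4 higher and 0 lower, and edgeR 1 and 0. The gene was Itga8, whose integrin binds fibronectin and nephronectin and which stellate cells express, with 401, 262, 438 and 467 normalized counts in Brap LKO livers and 74.1, 163, 171 and 131 in Brap F/F livers. Its log2 fold change was 1.57 (SE 0.28, limma adjusted p = 0.0435), and the call held in 2 of 8 fits with single livers left out (up to 0.150) and in 10 of 13 other alternatives. The most abundant receptors per kb were Cd47, which binds thrombospondin-1 (0.08, limma adjusted p = 0.603), and Egfr (0.90, 0.281).

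**Figure D4:**
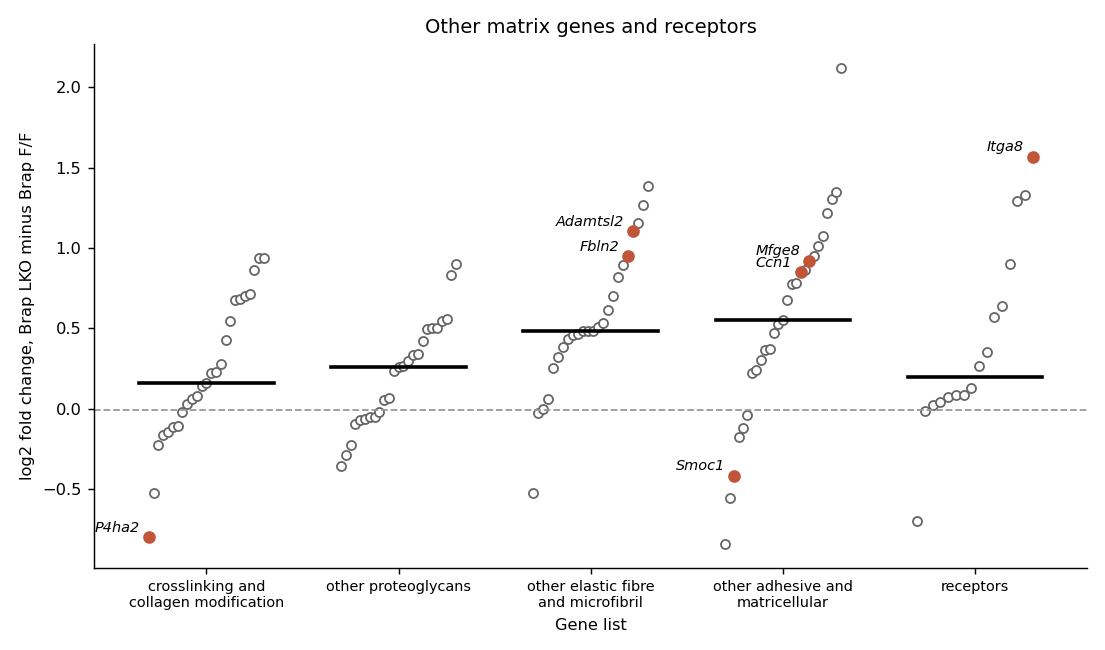
Log2 fold change (Brap LKO minus Brap F/F) of each tested gene of the 4 other matrix lists and of the receptors, ordered within a list, with filled circles for limma adjusted p under 0.05, thick lines at list medians and a dashed line at the median of all genes tested. List medians run from 0.16 for crosslinking and collagen modification to 0.55 for adhesive and matricellular genes, and P4ha2 and Smoc1 are the genes past the threshold on the lower side.

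Marker genes of liver cell types were summed in each liver beside these results. For the counts of markers called, the shares of all genes higher were 0.664% (limma), 9.23% (unadjusted), 3.02% (DESeq2) and 0.703% (edgeR). Those lower were 0.104%, 6.59%, 1.13% and 0.0912%, in turn. The same shares apply to each marker list below. Collagen-producing fibroblast markers had sums of 3183, 2151, 3385 and 4219 normalized counts in Brap LKO livers and 1479, 1456, 1703 and 2117 in Brap F/F livers. The groups did not overlap, and among the Brap LKO livers replicate 4 was highest and replicate 2 lowest. Lox, Loxl1, Loxl2, Lum, Fbn1, Eln and Thbs1 had the same livers at both ends, and Dcn, Bgn and Fn1 did not. All 7 tested markers of the list were above 0 (median log2 fold change 0.95), limma called 0 of them, 5 were higher at an unadjusted p under 0.05, and DESeq2 called 4 and edgeR 0. Col3a1, the most abundant gene of this list, made up 33.6% of the sum and had a log2 fold change of 1.04, and Col1a2 had 0.95 (limma adjusted p = 0.137 and 0.0939). The part of these cells in the matrix gene differences was not tested.

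Sums of stellate cell markers overlapped between genotypes. They were 9275, 8323, 11275 and 8322 in Brap LKO livers and 6519, 11872, 12342 and 7506 in Brap F/F livers. Brap F/F replicates 2 and 3 were above Brap F/F replicates 1 and 4, as for Dcn. Of 14 tested, limma called 1 higher (Pdgfrb, with 428, 358, 476 and 601 against 212, 223, 241 and 305 normalized counts) and 0 lower, with 4 higher and 1 lower at an unadjusted p under 0.05. DESeq2 called 2 (Pdgfrb and Cygb) and edgeR 1, and 10 of 14 were above 0. The shares of all genes higher were 0.664% (limma), 9.23% (unadjusted, with 6.59% lower), 3.02% (DESeq2) and 0.703% (edgeR). Cygb did not overlap between genotypes (log2 fold change 0.73). The median log2 fold change was 0.26, and Ecm1, which is also among the adhesive genes, was the most abundant (31.6% of the sum). Colec11, next per kb, had -0.07 (limma adjusted p = 0.911). Their part in the results was not tested.

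Portal fibroblast and mesothelial markers included Wt1, a transcription factor of mesothelium, which had 40.1, 28.9, 53.6 and 51.0 normalized counts in Brap LKO livers and 5.70, 9.15, 4.20 and 10.8 in Brap F/F livers. Its log2 fold change was 2.43 (SE 0.32, limma adjusted p = 0.0177), and it was the only limma call among 10 tested markers, of which 7 were above 0 (median 0.48), DESeq2 called 3 and edgeR 1. It held in 4 of 8 fits with single livers left out and in 13 of 13 other alternatives. Over all genes, 0.664% were called higher by limma, 3.02% by DESeq2 and 0.703% by edgeR. The mesothelial genes Msln, Upk1b and Upk3b had 0.12, -0.14 and -0.71, and limma called none of them. The list's sum, 3433 ± 700 against 4828 ± 2132 (SD, n = 4), was mostly Krt8 (89.2%), a keratin that hepatocytes and cholangiocytes also make. Krt8 had a log2 fold change of -0.55 and Dpt, next in abundance per kb, 1.44 (limma adjusted p = 0.414 and 0.0881). The part of these cells was not tested.

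Cholangiocyte markers summed to 2224, 2242, 1941 and 3792 in Brap LKO livers and 1666, 1294, 1140 and 2171 in Brap F/F livers, with replicate 4 the highest liver of each group. All 8 tested were above 0 (median log2 fold change 0.83), and limma called Cftr (2.91, adjusted p = 0.0331), which had 16.4, 16.1, 6.07 and 17.7 against 0, 1.02, 2.10 and 0.981 normalized counts. The controls had 0 to 2 reads, and the estimate ran from 1.62 to 3.76 over the alternatives. The call held in 3 of 8 fits with single livers left out and in 11 of 12 other alternatives, not with the replicate number as a block (limma adjusted p = 0.0771), and DESeq2 called 2 of the list and edgeR 1. Spp1 made up 51.4% of the sum and had a log2 fold change of 0.95 (limma adjusted p = 0.198). Macrophage markers summed to 9145 ± 2300 in Brap LKO and 7435 ± 1146 in Brap F/F livers (SD, n = 4). Limma called 2 of 13 higher, Itgax (log2 fold change 1.52, adjusted p = 0.0402) and Gpnmb (2.20, adjusted p = 0.0480), each held in 1 of 8 fits with single livers left out. Over the other alternatives Itgax held in 11 of 13, not with the animal series as a covariate (limma adjusted p = 0.0755) or quantile normalization (0.0606), and Gpnmb in 8 of 12. Of the 13, 12 were above 0 (median 0.50), and DESeq2 called 4 and edgeR 2, while the resident Kupffer cell genes Clec4f (24.7% of the sum) and Cd5l had 0.02 and 0.13 (limma adjusted p = 0.960 and 0.807). Calls in both lists stand against 0.664% of all genes higher by limma, 3.02% by DESeq2 and 0.703% by edgeR. The part of either cell type was not tested.

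Sums of hepatocyte markers overlapped between genotypes, and 2 of 11 tested markers were above 0. Relative to their mean over the 8 livers, the log2 of their sum was -0.32, -0.28, 0.03 and -0.43 in Brap LKO livers and -0.10, 0.51, 0.24 and 0.10 in Brap F/F livers, so Brap LKO replicate 4 was the lowest. Limma called 0 of 11, with 0 higher and 3 lower at an unadjusted p under 0.05 (9.23% and 6.59% of all genes). DESeq2 and edgeR called 0, and the median log2 fold change was -0.34. Alb made up 64.3% of the sum (log2 fold change -0.52, limma adjusted p = 0.634), and Apoa1 had 0.01 (0.985). The limma p also draws on a variance trend over all genes, so it does not measure the spread of these livers alone. As a percentage of reads, Alb took 6.04 ± 0.96 in Brap LKO and 7.75 ± 1.21 in Brap F/F livers (SD, n = 4), with overlap. Endothelial, smooth muscle and platelet markers gave sums of 11792 ± 1622, 5790 ± 351 and 105 ± 26.3 in Brap LKO livers and 10164 ± 1961, 5768 ± 622 and 107 ± 17.2 in Brap F/F livers (SD, n = 4), and limma called 0 of 10, 0 of 4 and 0 of 3 tested, of which 10, 2 and 2 were above 0 (medians 0.26, 0.20 and 0.18). At an unadjusted p under 0.05, 2, 1 and 0 of them were higher (9.23% of all genes). DESeq2 called 1, 1 and 0 of them (3.02% of all genes), and edgeR called 0 (0.703%). Their most abundant genes were Eng (log2 fold change 0.40), Mylk (-0.02) and Itga2b (-0.16), with Clec4g (0.16), Tagln (0.50) and Pf4 (0.80) also among the leading genes per kb. No marker of any list was at 0 in all 8 livers, and the part of these cell types was not tested.

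**Figure D5:**
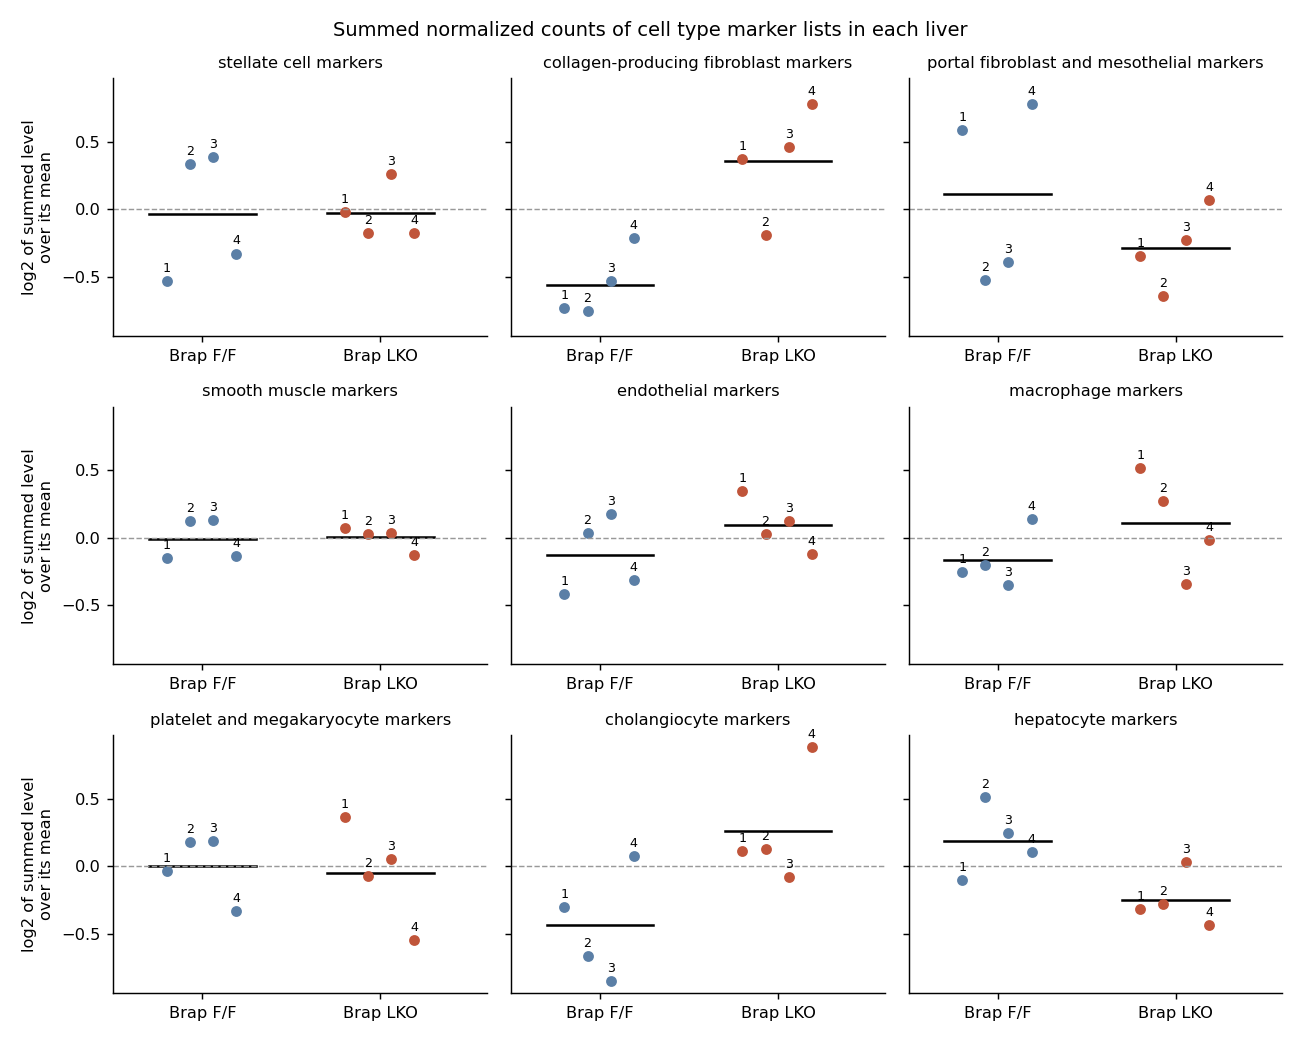
Log2 of the summed normalized counts of each marker list in each liver relative to the mean over the 8 livers, for Brap F/F (blue) and Brap LKO (red) livers numbered by replicate, with group means as lines. Collagen-producing fibroblast markers separate the groups (lowest Brap LKO liver at -0.19, highest Brap F/F liver at -0.22), whereas stellate cell markers do not.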

How the data were processed

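RNA of 8 left liver lobes (4 Brap LKO, 4 Brap F/F) was analysed, grouped by the genotype in the sample records. Per the methods of the study, RNA was taken up in TRIzol and column purified, an mRNA library kit of NuGEN was used, and single-end reads were aligned to mm10 with STAR 2.6.0c. The read counter, annotation release and use of strand are not given in the sources used here. The deposited signal is a count of reads per gene that the authors divided by the size factor of its library (DESeq2). Whole reads were recovered for 100% of values in each liver (within 0.001 of a read). Columns of the authors' own DESeq2 comparison (fold changes and p-values) were not used.

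Limma 3.58.1 (R 4.3.3; eBayes with a mean-variance trend) was fitted to log2(normalized count + 1) of the 15352 genes with a mean of at least 5 normalized counts, all 10 members included, without covariates. Tests were two-sided with Benjamini-Hochberg adjustment over all genes tested and a threshold of 0.05. Fold changes are on the log2(value + 1) scale, which understates the change of low genes. The limma script was tested on simulated data. With 70 ways to split 4 livers from 4, an exact permutation test gave 0.0286, the smallest p this design allows, for Loxl1, Lum, Bgn and Eln. Any gene without overlap gets this p (5.48% of genes higher, 4.39% lower), so it restates the lack of overlap. For the other members the permutation p ran from 0.0571 to 0.686. edgeR 4.0.16 and DESeq2 1.42.0 on the recovered reads, other pseudocounts, filters, scalings and covariates, and leaving out each liver were alternatives. Positions and transcript lengths came from GENCODE vM21. Figures were drawn with matplotlib 3.10.9.

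Named genes are the 10 members, in each other list the genes past the threshold (at most 6) and the 2 most abundant per kb, and the 5 genes nearest in profile. The value of 1 gene so chosen is not reported here. Loxl3, Loxl4, Ccn2, Cygb, Msln, Upk1b, Upk3b and Serpinh1 were named after their values were seen. Members and lists were chosen with earlier results of these data known. Of the listed genes, 11 of 132 other matrix genes and 1 platelet marker were not analysed here.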

Additional observations from a re-analysis of the deposited data

Results flagged for a closer look

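In the 20 groups of 4 livers (10 genes, 2 genotypes), no liver stood apart from the other 3 by Dixon's test, where the gap to the nearest liver is divided by the range. Chance alone marks about 1 in 20 groups.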

How the results depend on the processing

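The direction of 9 of the 10 genes was the same under each alternative run. The log2 fold change of Fn1 turned to 0.14 when values were quantile normalized and to 0.072 when every liver was given an equal total, and with single livers left out it ran from -0.204 to 0.0177; the cause was not tested. Scaling to the same total moved the median of all genes by 0.16, and relative to that median Fn1 was at -0.07 and the members' median at 0.72. Under quantile normalization the median of all genes moved by -0.007, and Fn1 was at 0.16 relative to it. The members' median ran from 0.60 to 0.93 over all alternatives.

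The count of members called higher (1 by limma) was 2 with no filter on low values, 0 with a mean of at least 20, 0 under quantile normalization, 5 with the same total per liver, 0 without the eBayes trend, 4 with the animal series as a covariate, 2 with edgeR, 5 with DESeq2, 2 at an adjusted p under 0.1 and 0 to 2 with single livers left out. Members called lower stayed at 0. For all genes higher (102) it was 62 under quantile normalization, 459 with the same total, 455 with DESeq2, 283 at an adjusted p under 0.1 and 11 to 178 with single livers left out. For all genes lower (16) it was 9 with a mean of at least 20, 170 with DESeq2, 64 at an adjusted p under 0.1 and 4 to 54 with single livers left out.

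For other matrix genes higher (4) the count was 2 under quantile normalization, 19 with the same total, 10 with the animal series, 20 with DESeq2, 15 at an adjusted p under 0.1 and 0 to 6 with single livers left out. For other matrix genes lower (2) it was 1 with a pseudocount of 0.5, no filter, quantile normalization, TMM factors, robust eBayes or edgeR, 0 with a mean of at least 20, the same total, no eBayes trend or the animal series, 3 with DESeq2 and 0 to 1 with single livers left out. Causes were not tested.

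Livers with the same replicate number are not known to share more than that number, and their deviations correlated weakly over genes (-0.13, 0.00336, 0.20 and 0.29). With the replicate number as a block, 2 members were higher, 80 genes higher and 15 lower, and 3 other matrix genes higher (Mfge8 as before, with Serpinh1 and Spp1 new, while Adamtsl2, Fbln2 and Ccn1 were lost) and 1 lower (Smoc1).

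Among 209 pairs of a gene and an alternative, 10 lost the threshold (each for Loxl1) and 16 passed it newly. With 3 to 13 reads of Lox per liver, that gene was measured at low depth. With the animal series partly mixed with genotype, their effects are not fully separable here.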
